A study of Bos taurus with 8 samples.

Results

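The solute carriers (SLC) described here are the genes whose symbol starts with SLC and a number, without the mitochondrial SLC25 family, that averaged at least 1 CPM (reads scaled to a library total of 1000000) over 8 libraries of bovine embryos. The rule gave 180 members from 47 families, out of 269 such genes in the table and out of 12129 genes of any kind above that level. A total of 89 SLC genes lay under it. The last members inside were SLC2A9, SLC39A13, SLC6A15 and SLC45A2 at mean levels of 1.001, 1.02, 1.04 and 1.05 CPM, and the first outside were SLC7A1, SLC19A3, SLC17A7 and SLC19A1 at 0.990, 0.958, 0.947 and 0.944 CPM. Of the members, 148 (82.2%) reached 1 CPM in the mean of each of the 4 groups, and 16 (8.89%) averaged under 1 CPM outside their highest group and so passed only through it. Not all of these genes code for carriers of the plasma membrane. Most SLC35 and several SLC30 proteins sit in the endoplasmic reticulum or Golgi, SLC17A5, SLC38A9 and SLC66A1 in lysosomes, and SLC4A1AP, SLC2A4RG and SLC7A6OS are no carriers but carry a neighbour's or partner's symbol.

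The embryos came from oocytes of slaughterhouse ovaries that were matured and fertilised in vitro with Holstein semen. Control and edited embryos, each taken at 4 and at 8 cells, made up 4 groups of 2 libraries, and a library pooled 5 embryos. Edited zygotes had received PEmax, an optimised prime editor (a Cas9 nickase joined to a reverse transcriptase), with a guide RNA by injection into the cytoplasm, to make the change labelled A148G in RPL12, a gene of the large ribosomal subunit. The labels do not say whether control zygotes were injected, what share of alleles or blastomeres carried the edit, or whether libraries came from separate cultures. The p-values below therefore measure only the spread between these libraries, which may be technical. The sample titles call the embryos base edited, and the source name of the 4-cell samples reads oocytes although the titles give 4-cell embryos.

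Solute carriers are membrane proteins that move amino acids, sugars, ions, metals, vitamins and metabolites across membranes, by facilitated diffusion, by exchange, or by coupling to the sodium or proton gradient. Early embryos rely on stored maternal transcripts until their own genome becomes active, which in cattle happens around the 8-cell stage. In that period they take up pyruvate and lactate through monocarboxylate carriers, use amino acid carriers for osmotic balance and protein synthesis, and draw on glucose carriers more as development proceeds. Cumulus cells, which surround the oocyte, are rich in carriers for amino acids and glucose and pass these nutrients to it through gap junctions.

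The 8 libraries held between 33527531 and 35122409 assigned reads, so 1 read was worth about 0.03 CPM. RPL12 itself stood at 159 and 174 CPM in the 4-cell control libraries and at 27.5 and 33.6 CPM in the edited ones, and at 96.3 and 97.6 CPM against 14.1 and 11.9 CPM at the 8-cell stage. All 14 listed oocyte markers were detected, and 6 rose and 1 fell with editing at the 4-cell stage and 2 rose at the 8-cell stage. Their summed level was 19600 and 26027 CPM in the 4-cell control libraries, 49115 and 57682 in the 4-cell edited, 50005 and 37282 in the 8-cell control and 52371 and 55607 CPM in the 8-cell edited libraries, with 4-cell control replicate 1 the lowest. BTG4 alone made up most of each sum, at 12015.5 and 14925, 28841 and 37563, 33193 and 23479, and 30586 and 32009 CPM in the same order. Of 20 cumulus and granulosa markers, 17 reached 1 CPM. Their summed level was 1668 and 1365 CPM in the 4-cell control libraries, 494 and 552 in the 4-cell edited, 651 and 904 in the 8-cell control and 533 and 508 in the 8-cell edited libraries, and 10 of the 17 fell and 2 rose with editing at the 4-cell stage. The 2 that rose were HAS2 (24.3 and 55.4 CPM in control against 132 and 124 in edited) and KITLG (12.9 and 16.3 against 27.7 and 27.1 CPM). PTX3, PTGS2, CYP19A1, STAR and GJA1 were not called at that stage. Of the defining genes, FOXL2 and NR5A1 stayed under 0.5 CPM in every library. CYP11A1 stood at 227 and 201 CPM in the 4-cell control libraries against 3.33 and 14.5 CPM in the edited ones, and INHA (20.4 and 13.4 against 0.231 and 1.84 CPM), FSHR (3.45 and 9.68 against 0.694 and 1.70 CPM) and AMH (2.64 and 2.17 against 0.492 and 0.790 CPM) were called lower there too. The 10 listed stromal markers summed to 4059 and 7405, 1455 and 2156, 3532 and 3055, and 193 and 860 CPM in the same order of groups, and 6 of 7 tested fell with editing at each stage. LUM alone made up most of each stromal sum, at 2878 and 5965, 1282 and 1897, 3052 and 2449, and 120 and 749 CPM. Leukocyte markers, 10 listed and 3 tested, summed to 15.6 and 14.3, 20.3 and 12.8, 17.1 and 12.7, and 21.8 and 24.4 CPM. With editing, CD68 was called lower at the 4-cell stage. CD3E was called higher at the 8-cell stage, at 4.35 and 2.84 CPM in control against 10.6 and 8.75 CPM in edited libraries. The part of the cells of all these marker lists in the values below was not tested. In pooled embryos, fewer cells of a type and less RNA per cell cannot be told apart.

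Editing at the 4-cell stage went with higher levels of 38 members (21.1%) and lower levels of 38 (21.1%). Over all genes tested, 18.9% were called higher, 25.8% lower and 44.7% either way in this comparison, so the share of members called was near the background. A call here means an adjusted p under 0.05 in limma on log2(CPM + 1). The members' median log2 fold change was 0.01, beside -0.02 for all genes. At the 8-cell stage 1 member (0.556%) was called higher and 18 (10.0%) lower, with 1.08% and 14.5% of all genes called in those directions. The summed level of all members was nearly level over the libraries, at 4187 and 5093 CPM in the 4-cell control, 4798 and 4754 in the 4-cell edited, 4469 and 4400 in the 8-cell control and 4743 and 4693 CPM in the 8-cell edited libraries.

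The calls rested unevenly on single libraries. Runs that cut them most also cut the calls over all genes. Without 4-cell control replicate 1 the 38 members called higher at the 4-cell stage became 14, and without 4-cell edited replicate 1 they became 21. The count of lower calls stayed between 29 and 40 with any 1 of the 8 libraries left out. At the 8-cell stage the 19 calls became 8 without 8-cell control replicate 2, 9 without 8-cell edited replicate 1 and 10 without 8-cell edited replicate 2. Of the 38 lower calls at the 4-cell stage, 6 belong to members that passed the 1 CPM filter only through the 4-cell control group (SLC16A3, SLC35D2, SLC39A11, SLC43A1, SLC43A3 and SLC45A2). Such members had to be high there, and 32 lower calls were left without them. In every alternative run, 13 higher and 24 lower calls held at the 4-cell stage, and 5 lower calls held at the 8-cell stage, those of SLC38A5, SLC38A1, SLC38A2, SLC17A5 and SLC35F5. The 24 include SLC16A3, SLC35D2, SLC43A1 and SLC45A2, which passed only through the 4-cell control group. They also include SLC5A3, whose row is that of MRPS6 as well. Each call outside these 13, 24 and 5 was lost in at least 1 alternative.

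Called lower at both stages were 12 members, which is 31.6% of the 38 at the 4-cell stage and 66.7% of the 18 at the 8-cell stage. The 1 member called higher at the 8-cell stage was not called at the 4-cell stage. Over all genes the shares called lower at both stages were 48.2% and 85.6%. Counting libraries alone, 23 members (12.8%) were higher in all 4 edited libraries than in all 4 control libraries and 24 (13.3%) were lower, beside 9.98% and 19.6% of all genes.

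**Figure D1:**
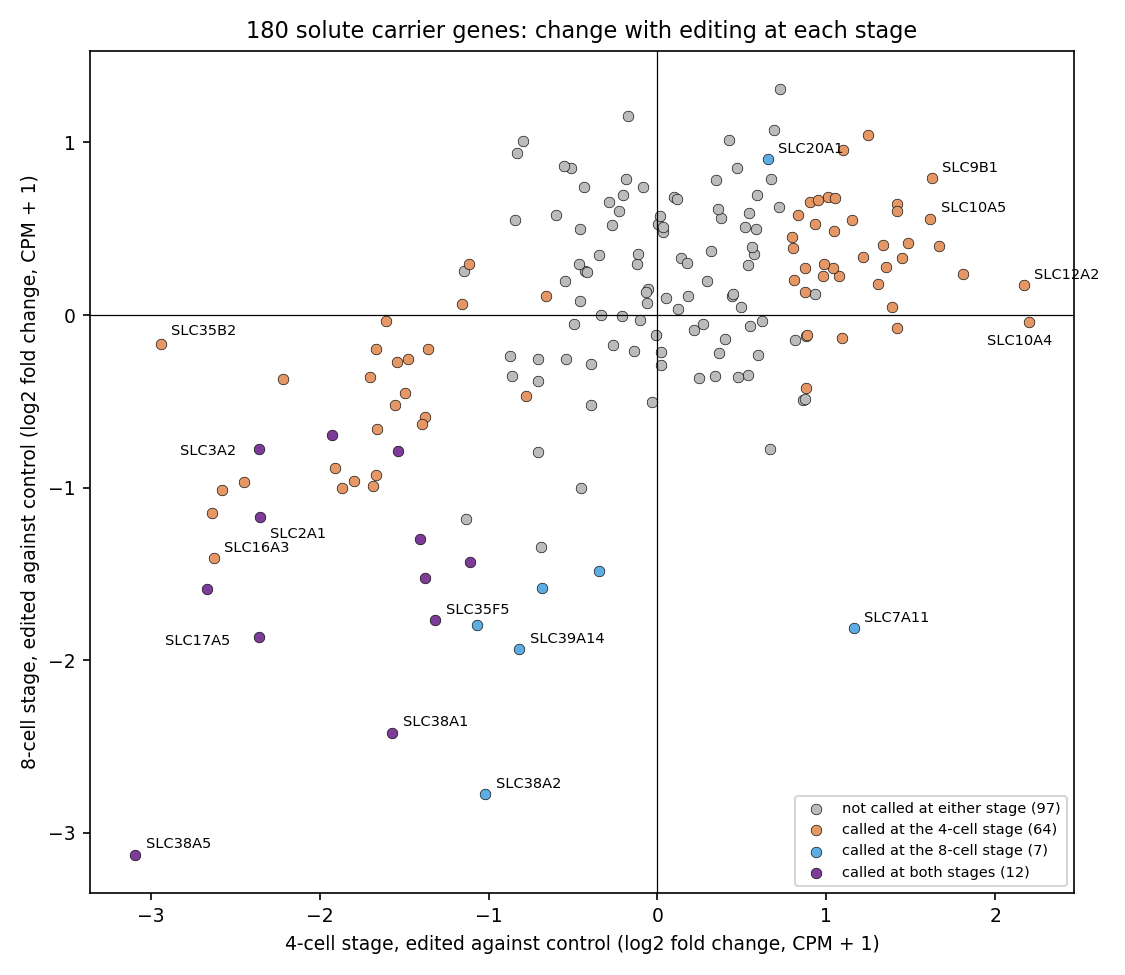
Each point is 1 of the 180 members, placed by its log2 fold change on CPM + 1 between edited and control embryos at the 4-cell stage (horizontal axis) and at the 8-cell stage (vertical axis), and coloured by the stage at which limma called it. The 12 members called at both stages all lie at the lower left, with SLC38A5 at about -3 on both axes.

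The counts by class and family below are to be read beside 18.9% of all genes higher and 25.8% lower at the 4-cell stage. At the 8-cell stage these shares were 1.08% and 14.5%. Amino acid carriers numbered 35. At the 4-cell stage 4 (11.4%) rose and 8 (22.9%) fell with editing (median 0.29), and at the 8-cell stage 5 (14.3%) fell (median 0.12). The 8 include SLC7A6OS, which is no carrier, and SLC43A1 and SLC43A3, which passed the 1 CPM filter only through the 4-cell control group. The falls were led by sodium-coupled neutral amino acid carriers of the SLC38 family and by SLC3A2, whereas cationic amino acid carriers of the SLC7 family were among the rises. With scaling by trimmed means (TMM) the 4-cell split was 7 higher and 7 lower.

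SLC38A5 exchanges protons while taking up glutamine, serine and glycine with sodium. Its level was 57.8 and 56.6 CPM in the 4-cell control libraries, 4.25 and 7.87 in the 4-cell edited, 26.8 and 24.3 in the 8-cell control and 1.67 and 2.46 CPM in the 8-cell edited libraries. Both edited libraries lay far under both controls at each stage. The log2 fold changes of -3.09 ± 0.35 (SE, limma adjusted p = 5.6e-06) and -3.13 ± 0.35 (adjusted p = 1.7e-05) were the lowest of any member at both stages on the log2(CPM + 1) scale, which understates changes of genes at low levels.

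SLC38A1 and SLC38A2 are system A carriers, which bring in small neutral amino acids with sodium. They are neighbours in the RefSeq annotation. SLC38A1 stood at 20.7 and 14.3 CPM in the 4-cell control, 4.63 and 5.70 in the 4-cell edited, 11.2 and 11.4 in the 8-cell control and 0.538 and 2.46 CPM in the 8-cell edited libraries. Its change was -1.57 ± 0.41 (limma adjusted p = 0.0059) at the 4-cell stage, where the call was lost without 4-cell control replicate 1 (-1.32, adjusted p = 0.070), and -2.42 ± 0.41 (adjusted p = 0.00054) at the 8-cell stage. SLC38A2, also a carrier that cells raise under osmotic stress or amino acid shortage, stood at 28.8 and 58.2, 14.3 and 27.0, 35.3 and 31.6, and 6.01 and 2.61 CPM in the same order. The 4-cell groups of SLC38A2 did not overlap but the change of -1.02 ± 0.41 missed the threshold (adjusted p = 0.053). It fell at the 8-cell stage by 2.77 ± 0.41 on the log2 scale (limma adjusted p = 0.00015).

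The SLC38 family as a whole held 10 members, with 1 higher and 3 lower at the 4-cell stage and 3 lower at the 8-cell stage. Its median changes were -0.42 and 0.12. SLC38A6 was its riser, at 29.8 and 33.9 CPM in the 4-cell control and 64.5 and 58.8 CPM in the 4-cell edited libraries (0.93 ± 0.25, limma adjusted p = 0.0071). SLC38A10, a carrier of internal membranes, fell from 6.78 and 5.22 CPM to 0.983 and 1.02 CPM (-1.80 ± 0.45, adjusted p = 0.0041).

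SLC3A2 is the heavy chain that several SLC7 carriers need to reach the cell surface. It stood at 135 and 154 CPM in the 4-cell control libraries against 25.3 and 29.5 CPM in the edited ones, and at 65.8 and 83.7 against 39.0 and 47.3 CPM at the 8-cell stage. The groups did not overlap at either stage. The change was -2.36 ± 0.25 (limma adjusted p = 3.1e-06) at the 4-cell stage. At the 8-cell stage it was -0.77 ± 0.25 (adjusted p = 0.043), a call lost without any 1 of the 4 libraries of that stage, with values from -0.60 without 8-cell control replicate 2 to -0.95 without 8-cell control replicate 1.

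No light chain in the SLC7 family was called lower beside SLC3A2 at the 4-cell stage. Of the family's 7 members, 2 rose and 1 fell at the 4-cell stage (median 0.62), and the faller, SLC7A6OS, is no carrier. SLC7A6, a light chain for cationic and neutral amino acids, stood at 18.1 and 18.4 CPM in the 4-cell control and 28.1 and 25.7 CPM in the 4-cell edited libraries, and was not called (0.53 ± 0.27, limma adjusted p = 0.12). The light chain SLC7A11, which imports cystine in exchange for glutamate, had 2.90 and 1.14, 6.62 and 4.47, 4.52 and 5.32, and 0.0897 and 1.59 CPM, the last pair being 3 and 53 reads. It fell at the 8-cell stage by 1.81 ± 0.46 (adjusted p = 0.012). That call rested on 8-cell edited replicate 1, without which the change was -1.19 (adjusted p = 0.195), and it was also lost without 8-cell control replicate 2 (-1.72, adjusted p = 0.069). The light chain gene SLC7A5 is not analysed here.

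Cationic amino acid carriers of the same family work without a heavy chain. SLC7A3 stood at 164 and 286 in the 4-cell control, 373 and 400 in the 4-cell edited, 410 and 314 in the 8-cell control and 570 and 506 CPM in the 8-cell edited libraries. It was higher with editing at the 4-cell stage (0.83 ± 0.25, limma adjusted p = 0.014), but without 4-cell control replicate 1 the change was 0.43 and the call was lost (adjusted p = 0.183), as it was without either edited library. SLC7A2 rose from 20.1 and 24.5 CPM to 52.1 and 42.1 CPM (1.04 ± 0.27, adjusted p = 0.0048), a call that every alternative kept. Both had higher means in edited than in control embryos at the 8-cell stage as well, with neither called there.

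The glutamate and neutral amino acid carriers of the SLC1 family, 4 members, had 0 limma calls at either stage, as in edgeR and DESeq2, with 0 and 2 of them at an unadjusted p under 0.05 in limma at the 4-cell and 8-cell stages. SLC1A5, a glutamine exchanger, stood at 30.8 and 32.5, 69.4 and 33.3, 40.9 and 44.4, and 74.7 and 64.8 CPM, so that 1 of the 4-cell edited libraries lay at the control level. SLC1A1, a glutamate carrier, stood at 4.64 and 7.74, 9.75 and 10.6, 4.83 and 6.18, and 9.86 and 10.5 CPM, with all 4 edited libraries above all 4 controls but limma adjusted p of 0.14 and 0.17. Of the 7 SLC6 members, which carry amino acids, creatine and transmitters with sodium and chloride, the creatine carrier SLC6A8 was higher and SLC6A16 lower at the 4-cell stage (1.10 ± 0.40 and -1.12 ± 0.44). Without 4-cell edited replicate 1 these became 0.58 and -0.62, and neither was called without either 4-cell control library. The taurine and glycine carriers SLC6A6 and SLC6A9 lay under 1 CPM.

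**Figure D2:**
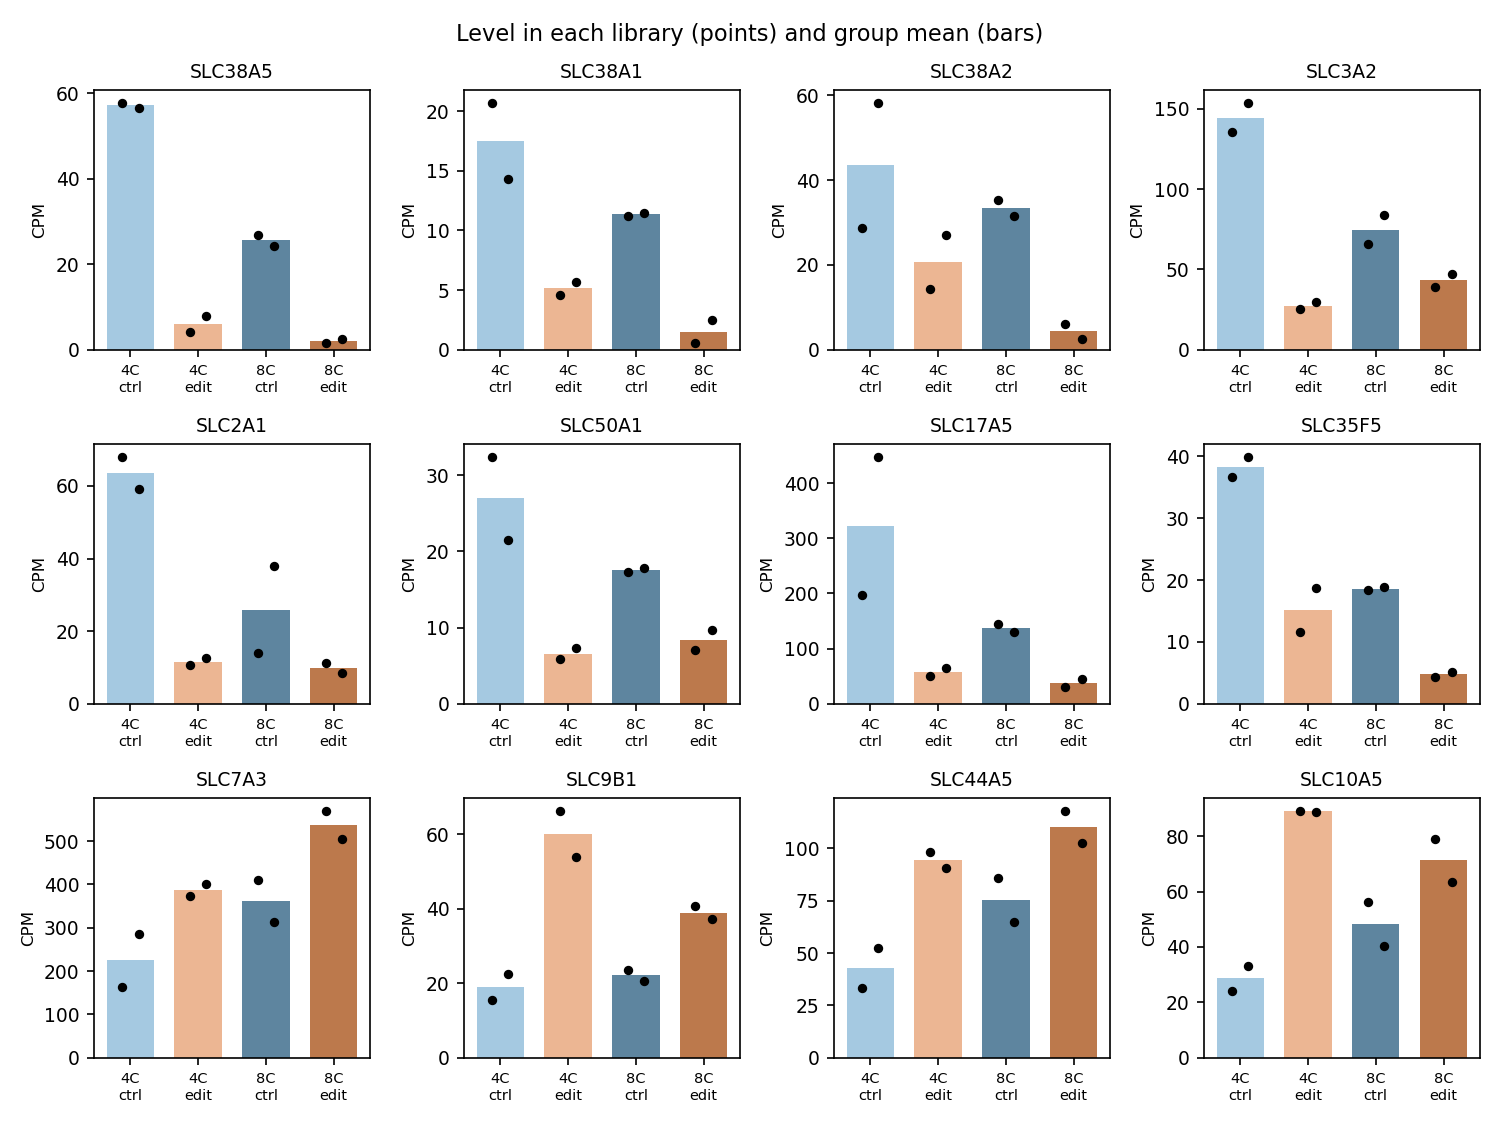
Levels in CPM of 12 members in the 8 libraries: points are the 2 libraries of a group, bars their mean, and each panel has its own vertical axis from 0 (4C and 8C, 4-cell and 8-cell; ctrl, control; edit, edited). SLC38A5 stood between 24.3 and 57.8 CPM in controls and between 1.67 and 7.87 CPM in edited embryos, whereas SLC9B1, SLC44A5 and SLC10A5 were higher in all edited than in all control libraries.

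Sugar carriers numbered 15. At the 4-cell stage 6 (40.0%) fell and 1 (6.67%) rose (median -0.54), and at the 8-cell stage 2 (13.3%) fell (median -0.20). SLC2A1, the widespread facilitative glucose carrier, stood at 68.0 and 59.1 CPM in the 4-cell control libraries and at 10.6 and 12.7 CPM in the edited ones. It fell by 2.35 ± 0.38 on the log2 scale (limma adjusted p = 0.00015), in every alternative. The control libraries differed at the 8-cell stage, at 13.99 and 37.8 CPM, and the edited stood at 11.2 and 8.39 CPM. That change was -1.17 ± 0.38 (limma adjusted p = 0.049), close to the threshold. The call was lost without 8-cell control replicate 2 (-0.48), 8-cell edited replicate 1 (-1.36), 8-cell edited replicate 2 (-0.98) or either 4-cell edited library. Without 8-cell control replicate 1 the change was -1.86.

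The other glucose carriers of the SLC2 family that are known from embryos did not differ detectably. SLC2A3, a high-affinity glucose carrier, stood at 6.64 and 9.59 CPM in the 4-cell control and 2.83 and 9.59 CPM in the 4-cell edited libraries (-0.50 ± 0.49, limma adjusted p = 0.44). SLC2A8, an intracellular glucose carrier, stood at 2.75 and 3.93 CPM against 2.55 and 2.90 CPM (-0.21 ± 0.43, adjusted p = 0.72). All 6 SLC2 members, among them SLC2A4RG, which is no carrier, had changes below 0 at both stages, with 2 and then 1 of them called. The changes ran from -2.35 to -0.21 at the 4-cell stage and from -1.17 to -0.005 at the 8-cell stage. In some alternatives the 8-cell changes of SLC2A3, SLC2A4RG, SLC2A6 and SLC2A8 lay above 0, as did the 4-cell change of SLC2A3.

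SLC50A1, a sugar carrier of the Golgi and plasma membrane, fell from 32.4 and 21.5 CPM to 5.81 and 7.28 CPM at the 4-cell stage (-1.87 ± 0.34, limma adjusted p = 0.00037). SLC37A4, which brings glucose 6-phosphate into the endoplasmic reticulum, fell from 10.1 and 8.09 to 3.01 and 2.84 CPM (-1.36 ± 0.40, adjusted p = 0.011), a call lost without 4-cell control replicate 1 (-1.21). SLC37A3 of the same family stood between 34.7 and 47.9 CPM in all 8 libraries (0.12 ± 0.27 and 0.04 ± 0.27 at the 4-cell and 8-cell stages). SLC45A4 was the only sugar carrier called higher, at 3.39 and 2.79 against 8.42 and 6.55 CPM (1.05 ± 0.39), a call lost without any 1 of the 4-cell libraries (0.89 to 1.21).

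The row of SLC5A3, the sodium-coupled inositol carrier, cannot be read as that gene. Its reads equalled those of MRPS6, a gene of the mitochondrial ribosome that overlaps it in the RefSeq annotation, in each of the 8 libraries. The shared values were 479 and 376 CPM in the 4-cell control, 148 and 143 in the 4-cell edited, 184 and 211 in the 8-cell control and 113 and 115 CPM in the 8-cell edited libraries (-1.54 ± 0.21 and -0.79 ± 0.21, limma adjusted p = 3.9e-05 and 0.018). Without this row 5 of 14 sugar carriers fell at the 4-cell stage and 1 at the 8-cell stage, and the medians were -0.52 and -0.16. The 5 include SLC45A2, which passed the 1 CPM filter only through the 4-cell control group. The summed level of the 14 was then 210 and 200 CPM in the 4-cell control, 127 and 111 in the 4-cell edited, 132 and 174 in the 8-cell control and 148 and 134 CPM in the 8-cell edited libraries. The counts over all members became 37 lower at the 4-cell stage and 17 at the 8-cell stage.

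Carriers of monocarboxylates, organic ions, bile acids, lipids and drugs numbered 28. At the 4-cell stage 9 (32.1%) were higher and 5 (17.9%) lower (median 0.44). At the 8-cell stage 2 (7.14%) were lower (median 0.12). Without 4-cell control replicate 1 the 9 became 3, and without 4-cell edited replicate 1 they became 5 beside 2 lower. SLC16A1, the main carrier of pyruvate and lactate, stood between 40.6 and 86.7 CPM in all libraries, and its changes of 0.25 ± 0.27 and -0.36 ± 0.27 were not called. SLC16A3, a lactate exporter of glycolytic cells, went from 7.36 and 5.60 CPM (254 and 191 reads) in the 4-cell control to 0.260 and 0.146 CPM (9 and 5 reads) in the 4-cell edited libraries. The change was -2.63 ± 0.47 (limma adjusted p = 0.00031). SLC16A3 passed the 1 CPM filter only through the 4-cell control group, so a difference from that group is no support. In the 8-cell control libraries it had 20 and 122 reads, and in the edited ones 0 and 1 (adjusted p = 0.051).

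SLC17A5 exports sialic acid from lysosomes. It stood at 197 and 448, 49.9 and 65.4, 144 and 130, and 29.8 and 45.4 CPM, so that each edited library lay under each control of its stage. The changes were -2.36 ± 0.33 (limma adjusted p = 3.7e-05) and -1.87 ± 0.33 (adjusted p = 0.00065), and both calls held in every alternative. SLC33A1, which brings acetyl-CoA into the endoplasmic reticulum, was also lower at both stages (-1.11 ± 0.38 and -1.43 ± 0.38). Its calls were lost without 4-cell control replicate 2 (-0.89), 4-cell edited replicate 1 (-0.83), 8-cell control replicate 2 (-1.30) or 8-cell edited replicate 1 (-1.25).

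Among the members of this class that rose were 2 of the 4 SLC10 genes, relatives of the bile acid carriers. SLC10A5 stood at 24.3 and 33.1 CPM in the 4-cell control and 89.1 and 88.8 CPM in the 4-cell edited libraries (1.62 ± 0.26, limma adjusted p = 0.00016). Its span overlaps those of ZFAND1, which rose by 1.20, and IMPA1, which fell by 1.01 on the log2 scale, so that counts may be shared. SLC10A4 stood at 3.30 and 2.40 against 14.8 and 18.6 CPM (2.2 ± 0.37, adjusted p = 0.00019), the largest rise of any member on the log2(CPM + 1) scale. SLC17A1 and its neighbour SLC17A3, phosphate and organic anion carriers, were both called higher at the 4-cell stage (1.45 ± 0.34 and 1.81 ± 0.57), the latter being 0.97 without 4-cell control replicate 1 and 0.94 without 4-cell edited replicate 2, where it was not called. None of these 4 was called at the 8-cell stage.

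Ion and pH carriers numbered 34. At the 4-cell stage 12 (35.3%) rose and 2 (5.88%) fell (median 0.45), beside 18.9% and 25.8% of all genes. The 12, the highest count of rises of any class, include SLC4A1AP, which is no carrier. The carriers of monocarboxylates and related solutes came next, with 32.1% higher. At the 8-cell stage 1 (2.94%) of the ion and pH carriers rose and 2 (5.88%) fell (median 0.26). The summed level of the class was 489 and 772 CPM in the 4-cell control, 1076 and 969 in the 4-cell edited, 842 and 849 in the 8-cell control and 1046 and 1085 CPM in the 8-cell edited libraries. The count of 12 fell most without 4-cell control replicate 1, the lower control library. It also fell without either 4-cell edited library. Calls over all genes fell in the same runs.

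SLC12A2 takes up sodium, potassium and chloride together and serves in volume recovery. It stood at 9.65 and 25.9 CPM in the 4-cell control libraries and 79.1 and 71.3 CPM in the edited ones, a rise of 2.17 ± 0.36 (limma adjusted p = 0.00017) that held in every alternative. Its groups overlapped at the 8-cell stage, at 36.2 and 31.1 against 32.2 and 44.8 CPM. SLC12A4, which moves potassium and chloride out of the cell, changed the other way, from 7.71 and 7.86 to 2.69 and 2.11 CPM at the 4-cell stage and from 3.06 and 4.20 to 0.538 and 0.659 CPM at the 8-cell stage (-1.38 ± 0.37 and -1.52 ± 0.37, adjusted p = 0.007 and 0.0089). Its 8-cell call was lost without 8-cell control replicate 2 (-1.35) or 8-cell edited replicate 1 (-1.47). The 8 members of the SLC12 family gave 3 rises and 1 fall at the 4-cell stage.

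SLC9B1, a sodium and proton exchanger known from sperm, stood at 15.5 and 22.6 CPM in the 4-cell control and 66.3 and 54.0 CPM in the 4-cell edited libraries (1.63 ± 0.28, limma adjusted p = 0.00025). It was higher in all 4 edited than in all 4 control libraries, with 23.6 and 20.7 against 40.8 and 37.2 CPM at the 8-cell stage (adjusted p = 0.071). Its neighbour SLC9B2 was also higher in all 4 edited libraries but was called at neither stage.

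SLC20A1, which brings in phosphate with sodium, was the only member called higher at the 8-cell stage. It stood at 157 and 137 CPM in the control and 266 and 285 CPM in the edited libraries (0.90 ± 0.28, limma adjusted p = 0.037). The call was lost without any 1 of the 8-cell libraries, with changes from 0.81 to 1.0, and also without either 4-cell edited library. At the 4-cell stage 1 control library was low, with 91.7 and 194 against 209 and 211 CPM (0.65 ± 0.28, adjusted p = 0.070). SLC8A1, the exchanger of sodium for calcium, was higher at the 4-cell stage, at 47.7 and 69.8 against 107 and 106 CPM (0.87 ± 0.26), a call lost without 4-cell control replicate 1 (0.60, adjusted p = 0.112) or either edited library. SLC4A1AP, which is no carrier, was higher there as well (0.88 ± 0.23), a call lost without 4-cell control replicate 1 (0.62) or 4-cell edited replicate 1 (0.76).

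**Figure D3:**
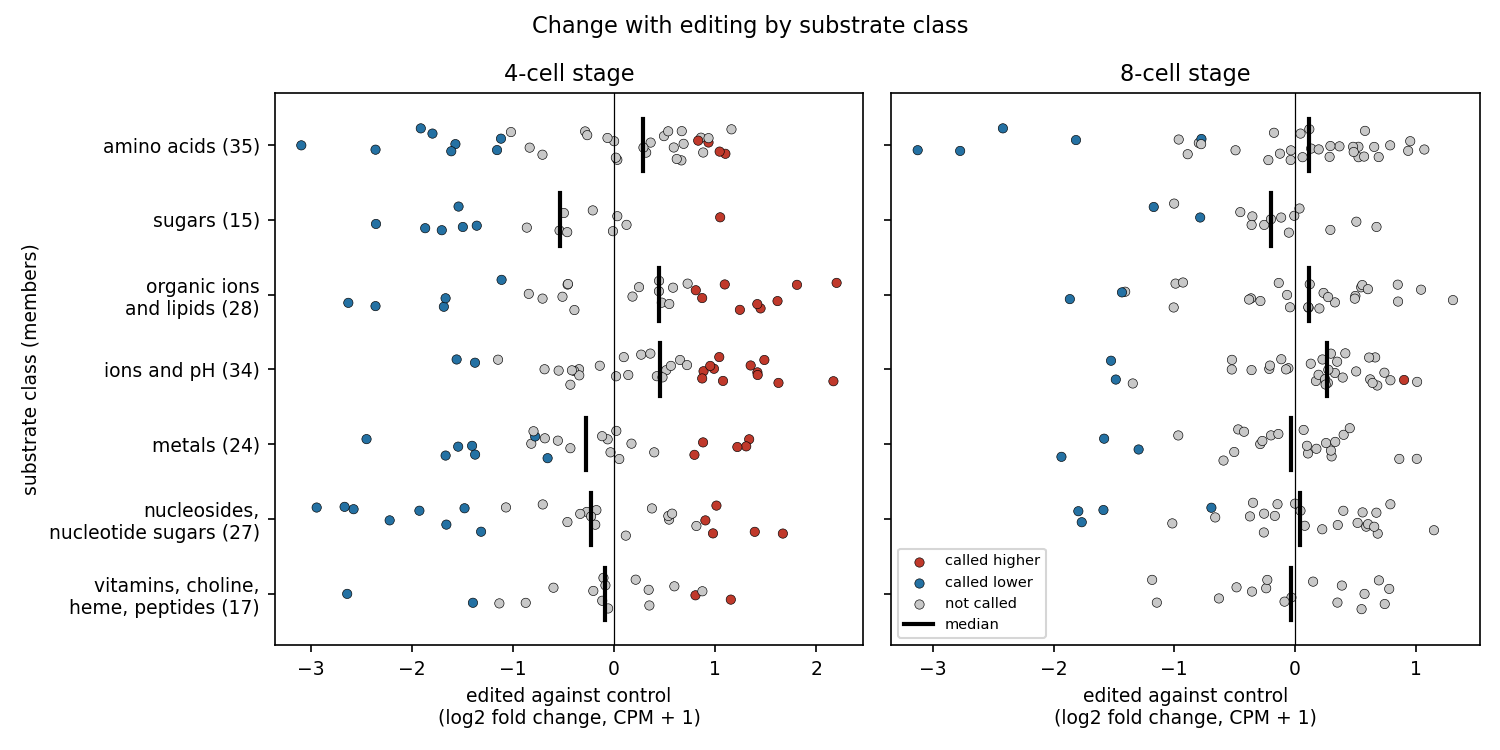
Log2 fold changes on CPM + 1 between edited and control embryos by substrate class, with the number of members in brackets, at the 4-cell stage (left) and the 8-cell stage (right); each point is a member, its vertical place within a class is random, red and blue mark those called higher and lower by limma, and thick lines are medians. The 4-cell medians ran from -0.54 for sugars to 0.45 for ions and pH, and 1 red point is left at the 8-cell stage.

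Metal carriers numbered 24. At the 4-cell stage 5 (20.8%) rose and 7 (29.2%) fell (median -0.28), and at the 8-cell stage 3 (12.5%) fell (median -0.03). The SLC39 family, which brings zinc and other metals into the cytosol, had 11 members. These gave 1 rise and 5 falls at the 4-cell stage (median -0.78) and 2 falls at the 8-cell stage. The 5 include SLC39A11, which passed the 1 CPM filter only through the 4-cell control group. The SLC30 family, which moves zinc out of the cytosol, had 6 members with 2 rises and 2 falls (median 0.10). Whether the families differed was not tested. The 5 SLC39 falls became 2 without 4-cell control replicate 2 and 3 without 4-cell control replicate 1, without 4-cell edited replicate 1, in edgeR or with no filter.

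SLC39A3 stood at 12.5 and 10.4 CPM in the 4-cell control libraries and at 1.10 and 1.46 CPM in the edited ones (-2.45 ± 0.39, limma adjusted p = 0.00014). SLC39A6 and SLC39A10 form the pair that brings in zinc in oocytes and embryos. SLC39A6 stood at 36.2 and 40.2 against 18.6 and 25.5 CPM (-0.78 ± 0.30, adjusted p = 0.044), a call lost without any 1 of 7 libraries and kept only without 4-cell edited replicate 2. SLC39A10 stood at 107 and 151 against 141 and 199 CPM and was not called (0.40 ± 0.25, adjusted p = 0.21).

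The SLC39 members that fell at the 8-cell stage were SLC39A14 and SLC39A8, which carry zinc, iron and manganese. SLC39A14 stood at 4.98 and 9.25 CPM in the control and 1.08 and 1.02 CPM in the edited libraries (-1.94 ± 0.39, limma adjusted p = 0.0023). SLC39A8 stood at 39.9 and 57.1 against 19.4 and 11.98 CPM (-1.58 ± 0.36, adjusted p = 0.0052). Neither was called at the 4-cell stage (-0.82 and -0.68). Without 8-cell control replicate 2 both calls were lost, with changes of -1.55 (adjusted p = 0.051) and -1.33, and that of SLC39A8 was also lost without 8-cell edited replicate 2 (-1.25).

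SLC30A9 of the SLC30 family acts on zinc in mitochondria. It stood at 91.7 and 135 CPM in the 4-cell control and 267 and 286 CPM in the 4-cell edited libraries (1.31 ± 0.25, limma adjusted p = 0.00055), in every alternative. SLC30A7, which loads the Golgi with zinc, was lower, at 109 and 133 against 66.3 and 87.4 CPM (-0.66 ± 0.24, adjusted p = 0.036). This call was lost without 4-cell control replicate 2 (-0.51), without 4-cell edited replicate 1 (-0.46) and without either 8-cell edited library. SLC40A1, the iron exporter, rose from 25.7 and 28.8 to 77.1 and 54.0 CPM (1.22 ± 0.26, adjusted p = 0.0015). SLC41A2, a magnesium carrier, rose from 25.8 and 37.2 to 61.2 and 54.8 CPM (0.88 ± 0.27), a call lost without 4-cell control replicate 1 (0.63) or 4-cell edited replicate 1 (0.80).

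**Figure D4:**
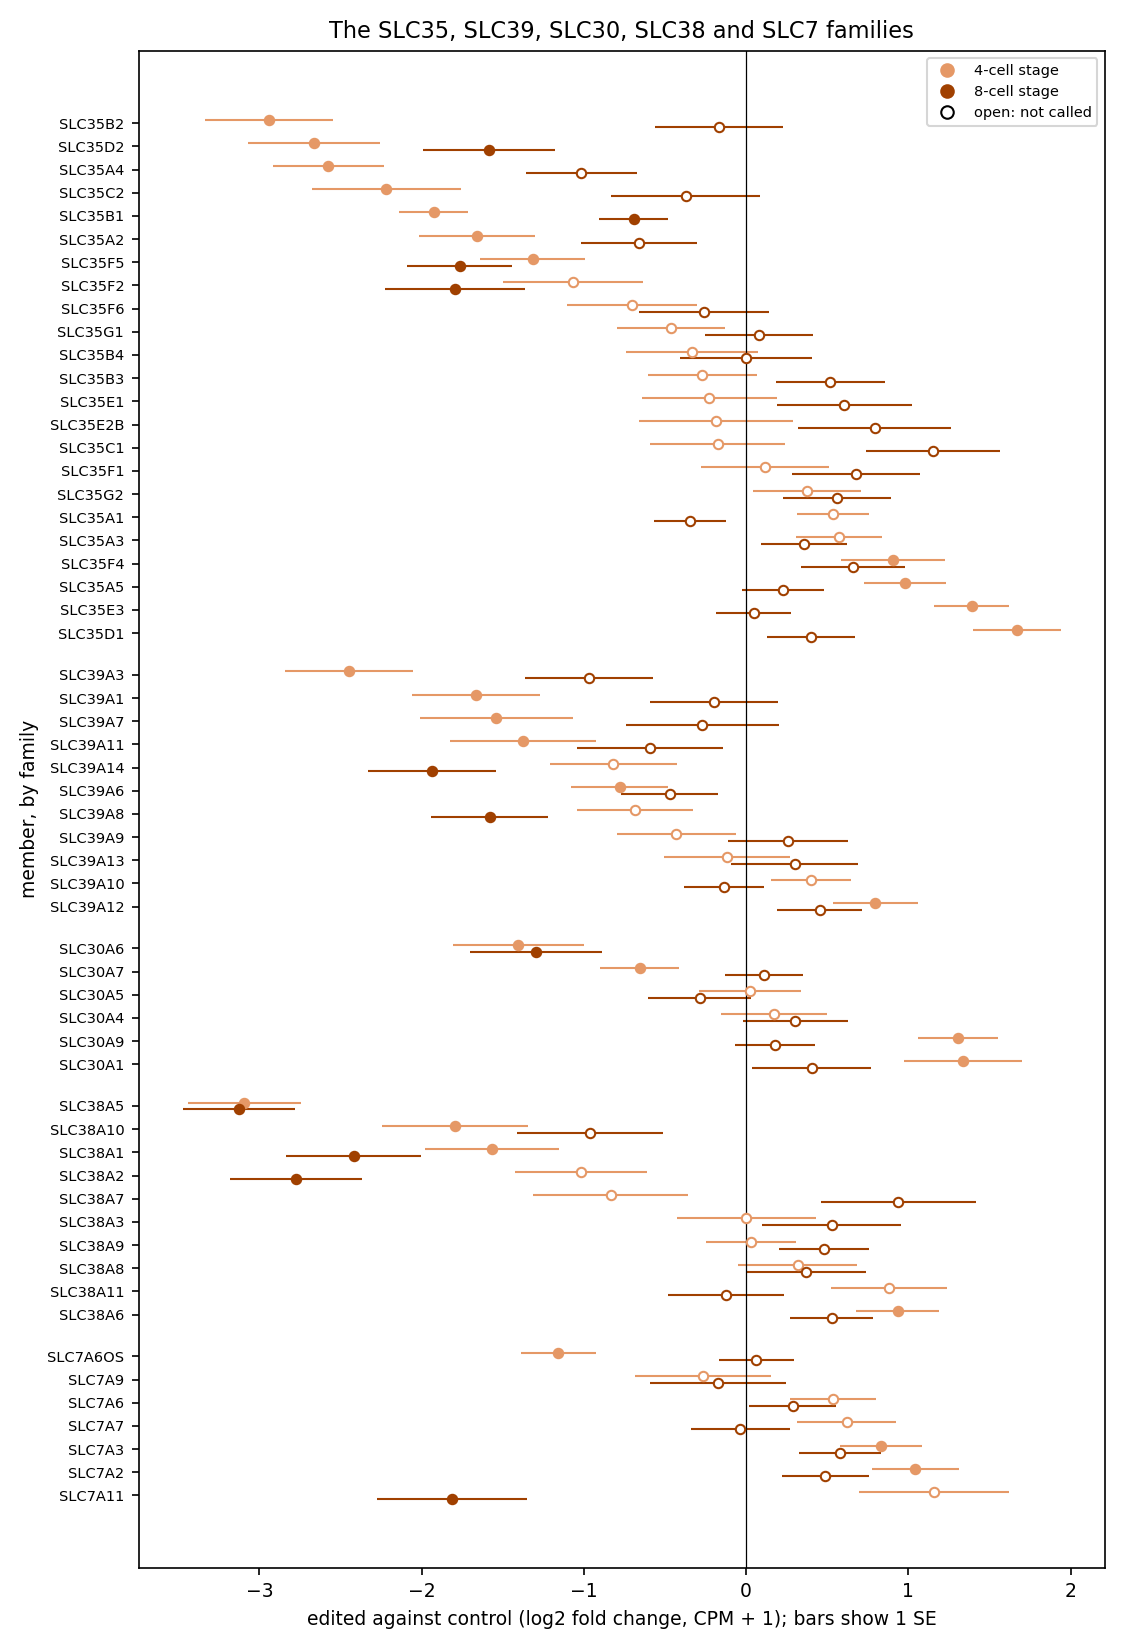
Log2 fold changes on CPM + 1 (points) with 1 standard error (bars) between edited and control embryos for the members of 5 families, at the 4-cell stage (light) and the 8-cell stage (dark); filled points were called by limma. SLC35 runs from -2.94 (SLC35B2) to 1.67 (SLC35D1) at the 4-cell stage, and the 3 falls of SLC38 at the 8-cell stage reach -3.13.

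Carriers of nucleosides and nucleotide sugars numbered 27. At the 4-cell stage 5 (18.5%) were higher and 8 (29.6%) lower (median -0.23), and at the 8-cell stage 4 (14.8%) were lower (median 0.05). The SLC35 family, the largest with 23 members, supplies the endoplasmic reticulum and Golgi with nucleotide sugars, ATP and sulfate donors. Its members went both ways at the 4-cell stage, 4 higher and 7 lower, over a range from -2.94 to 1.67. The 7 include SLC35D2, which passed the 1 CPM filter only through the 4-cell control group. The family's 4 falls at the 8-cell stage became 1 without 8-cell control replicate 1 or without 8-cell edited replicate 2, and 2 without 8-cell edited replicate 1.

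SLC35B1, which exchanges ATP for ADP at the endoplasmic reticulum, stood at 310 and 327 CPM in the 4-cell control, 75.2 and 91.8 in the 4-cell edited, 178 and 189 in the 8-cell control and 116 and 110 CPM in the 8-cell edited libraries. The groups did not overlap at either stage. The changes were -1.92 ± 0.21 (limma adjusted p = 4.9e-06) and -0.69 ± 0.21 (adjusted p = 0.035), the latter lost without any 1 of the 8-cell libraries, with values from -0.65 to -0.73. SLC35B2, which brings the sulfate donor PAPS into the Golgi, stood at 35.6 and 26.2, 5.21 and 1.73, 10.5 and 9.90, and 8.28 and 9.70 CPM. It fell at the 4-cell stage (-2.94 ± 0.40, adjusted p = 2.9e-05) and hardly differed at the 8-cell stage (-0.17 ± 0.40).

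SLC35A4 fell from 25.1 and 26.1 CPM to 3.76 and 3.19 CPM at the 4-cell stage (-2.58 ± 0.34, limma adjusted p = 2.7e-05). SLC35F5 fell at both stages, with 36.7 and 39.9, 11.6 and 18.7, 18.4 and 18.8, and 4.36 and 5.18 CPM (-1.31 ± 0.32 and -1.77 ± 0.32, adjusted p = 0.0036 and 0.00096). Its substrate is not settled. SLC35D2, which passed the 1 CPM filter only through the 4-cell control group, had 384 and 214 reads in the 4-cell control, 10 and 24 in the 4-cell edited, 88 and 53 in the 8-cell control and 0 in both 8-cell edited libraries. Against a floor of 3 reads per library it was at least 22.8-fold lower with editing at the 8-cell stage, for counting error only, and the family's median stayed at 0.05 with this gene at that bound. Its 8-cell call was lost without 8-cell control replicate 1 (-1.36) or without either edited library of that stage.

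The SLC35 members that rose included SLC35D1, a carrier of nucleotide sugars for chondroitin sulfate, from 28.2 and 42.2 to 131 and 95.6 CPM (1.67 ± 0.27, limma adjusted p = 0.00015). SLC35E3, of unknown substrate, rose from 70.1 and 97.1 to 217 and 219 CPM (1.39 ± 0.23, adjusted p = 0.00018). SLC35A1, the CMP-sialic acid carrier, stood at 99.4 and 118 against 175 and 142 CPM and was not called (0.54 ± 0.22, adjusted p = 0.060). SLC29A1, the equilibrative nucleoside carrier, fell at the 4-cell stage from 39.6 and 35.7 to 13.4 and 12.3 CPM (-1.48 ± 0.30, adjusted p = 0.00083).

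Carriers of vitamins, choline, heme and peptides numbered 17, with 2 (11.8%) higher and 2 (11.8%) lower at the 4-cell stage (median -0.09). At the 8-cell stage 0 were called (median -0.03), with 4 at an unadjusted p under 0.05 in limma. There edgeR called 0 and DESeq2 called 2. SLC44A5, of the choline carrier family, rose from 33.4 and 52.3 to 98.3 and 90.6 CPM at the 4-cell stage (1.15 ± 0.26, limma adjusted p = 0.0021), and 8-cell levels were 85.9 and 64.8 against 118 and 102 CPM. SLC44A3 stood at 18.2 and 15.5 against 18.1 and 13.8 CPM at the 4-cell stage and was not called at either stage. SLC19A2, a thiamine carrier, was higher at the 4-cell stage, at 23.8 and 30.5 against 50.0 and 45.7 CPM (0.80 ± 0.26), a call lost without 4-cell control replicate 1 (0.63, adjusted p = 0.120) or 4-cell edited replicate 1 (0.74). SLC66A1, a lysosomal exporter of cationic amino acids placed here by its family, fell from 17.4 and 8.85 to 0.897 and 1.46 CPM (-2.64 ± 0.43, adjusted p = 0.00015). Of the folate and thiamine carrier family, SLC19A1 lay under 1 CPM.

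Between the 4-cell and the 8-cell stage, control embryos had 4 members called higher and 12 lower, beside 2.75% and 6.27% of all genes (9.02% either way). The 4 were SLC35D1, SLC35E3, SLC40A1 and SLC8A1, and the 12 were SLC17A5, SLC2A1, SLC35A4, SLC35B1, SLC35B2, SLC35C2, SLC35D2, SLC39A3, SLC3A2, SLC45A2, SLC5A3 and SLC66A1. SLC35A4 went from 25.1 and 26.1 to 7.09 and 7.92 CPM (-1.65 ± 0.34, limma adjusted p = 0.015), and SLC35E3 from 70.1 and 97.1 to 185 and 157 CPM (1.04 ± 0.23, adjusted p = 0.019). SLC45A2, a carrier of pigment cell organelles, went from 3.36 and 3.08 to 0.715 and 0.296 CPM, but SLC45A2 and SLC35D2 passed the 1 CPM filter only through the 4-cell control group, and the SLC5A3 row is that of MRPS6 as well. Without that row 11 members were called lower. These 16 calls rested on single libraries: they became 1 without 4-cell control replicate 1, 0 without 8-cell control replicate 1 and 27 without 4-cell control replicate 2, and 1 in edgeR. Calls over all genes fell and rose in the same runs. The 4-cell control libraries enter this comparison and the 4-cell editing comparison alike.

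In edited embryos 1 member was called higher from the 4-cell to the 8-cell stage (1.45% of all genes were) and 6 lower (3.73% of all genes). SLC5A1, the sodium-coupled glucose carrier, was the higher one, at 11.7 and 9.10 against 21.3 and 27.6 CPM (1.16 ± 0.31, limma adjusted p = 0.044). The lower ones were SLC35F5, SLC38A2, SLC39A8, SLC39A14, SLC41A2 and SLC7A11. SLC41A2 went from 61.2 and 54.8 to 26.4 and 26.5 CPM (-1.10 ± 0.27, adjusted p = 0.032). The 7 calls became 0 without 4-cell edited replicate 2, 1 without 8-cell edited replicate 1 and 2 without 8-cell edited replicate 2.

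The change with editing itself differed between the stages for 8 members (3.96% of all genes were called in either direction), 4 with a higher and 4 with a lower change at the 8-cell stage, beside 1.95% and 2.0% of all genes. SLC35B2, SLC3A2, SLC35B1 and SLC7A6OS had fallen at the 4-cell stage and changed less or not at all at the 8-cell stage, with differences of 2.77 ± 0.56, 1.58 ± 0.35, 1.23 ± 0.30 and 1.22 ± 0.33. SLC7A6OS stood at 128 and 112 against 48.1 and 58.6 CPM at the 4-cell stage and at 88.4 and 78.2 against 83.8 and 90.1 CPM at the 8-cell stage. SLC10A4, SLC12A2 and SLC35E3 had risen at the 4-cell stage and had changes near 0 at the 8-cell stage, with differences of -2.24 ± 0.52, -1.99 ± 0.51 and -1.34 ± 0.33. SLC7A11 had the largest difference, -2.98 ± 0.65. Its change was 1.16 at the 4-cell stage, which was not called, and -1.81 at the 8-cell stage. The limma adjusted p-values lay between 0.023 and 0.047, and edgeR called 0 of the members here (38 at an unadjusted p under 0.05) and DESeq2 13. The 8 calls became 0 without 4-cell edited replicate 1, 4-cell edited replicate 2, 8-cell control replicate 1 or 8-cell edited replicate 1, 1 without 4-cell control replicate 1 or 8-cell edited replicate 2, and 16 without 4-cell control replicate 2.

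**Figure D5:**
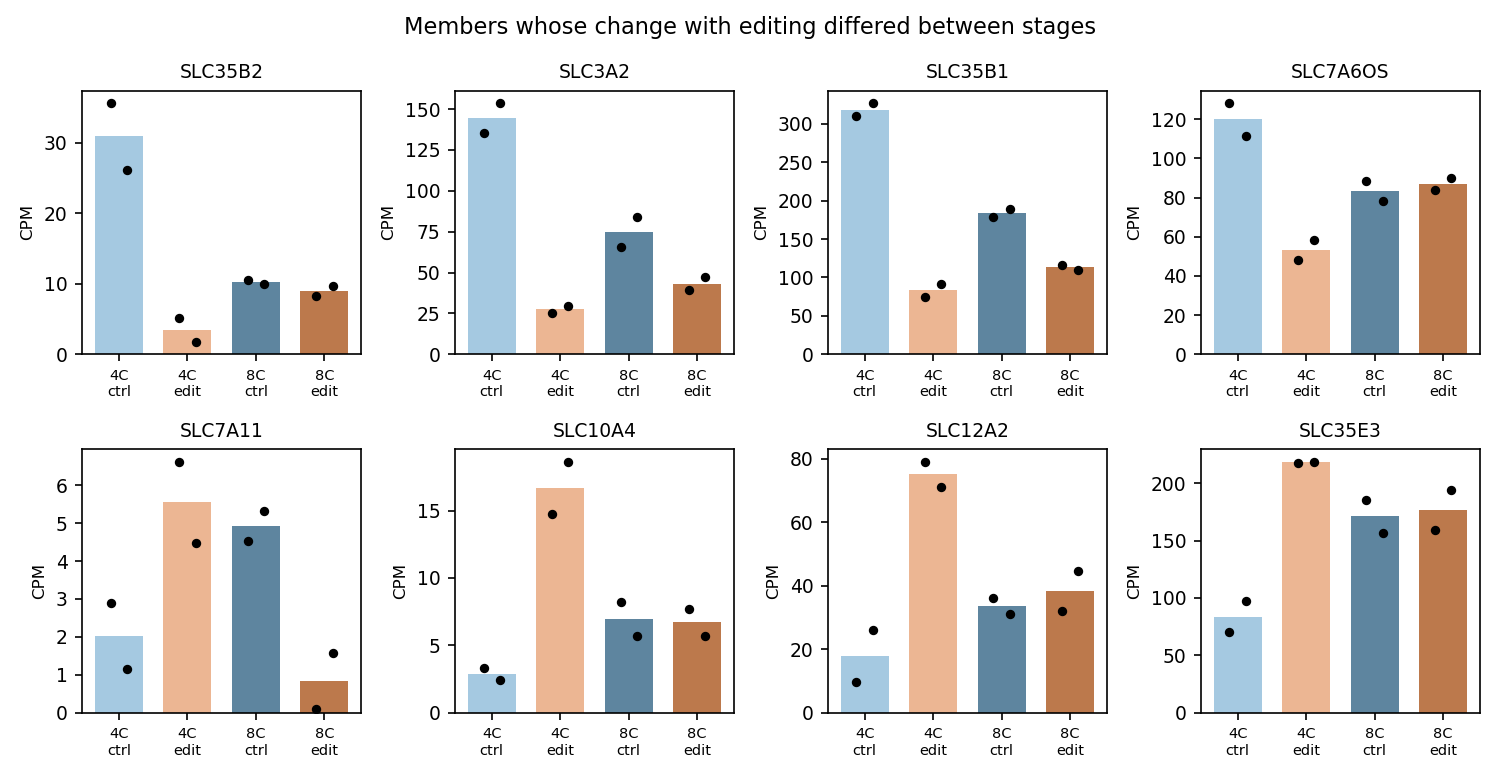
Levels in CPM in the 8 libraries (points) and group means (bars) of the 8 members whose change with editing differed between the stages by limma, each panel with its own axis from 0. In SLC12A2 the 4-cell edited libraries stood at 79.1 and 71.3 CPM against 9.65 and 25.9 CPM in control, while the 8-cell libraries lay between 31.1 and 44.8 CPM.

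Genes that work with the carriers were counted from lists, to be read beside the shares called among all genes tested. At the 4-cell stage 18.9% of these were higher with editing and 25.8% were lower, against 1.08% and 14.5% at the 8-cell stage. The list genes named below all had lower levels with editing at the 4-cell stage, and risers are only counted. The 4-cell median log2 fold changes were -1.81 for the sodium pump, 0.17 for chaperones and trafficking regulators and 0.40 for lysosomal amino acid sensing. They were -0.56 for transcription factors and zinc-binding proteins and 0.11 for other transport families. The sodium pump builds the gradient that many carriers use. Of its 15 listed subunits and regulators 7 were tested, and 5 fell at the 4-cell stage, with 3 falls at the 8-cell stage. The beta subunit ATP1B3 fell from 209 and 148 to 49.9 and 48.8 CPM (-1.81 ± 0.27, limma adjusted p = 6.2e-05). Of 18 tested chaperones and trafficking regulators, 3 rose and 3 fell at the 4-cell stage and 4 fell at the 8-cell stage. Basigin (BSG), the chaperone of SLC16A1 and SLC16A3, stood at 378 and 325, 37.6 and 39.9, 104 and 141, and 59.1 and 51.9 CPM (-3.15 ± 0.23 and -1.11 ± 0.23, adjusted p = 6.1e-07 and 0.0031). SGK1, a kinase that keeps carriers at the surface, stood at 55.9 and 128 against 3.27 and 7.81 CPM at the 4-cell stage.

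Lysosomal amino acid sensing, which reads the output of carriers such as SLC38A9, had 19 tested genes, with 5 higher and 4 lower at the 4-cell stage and 3 lower at the 8-cell stage. LAMTOR1, an anchor of that complex, stood at 90.2 and 55.0 against 12.9 and 12.9 CPM at the 4-cell stage. The summed level of the whole list went the other way there, at 1130 and 1066 CPM in control against 1483 and 1346 CPM in edited libraries. Of 11 tested transcription factors of carrier genes and zinc-binding proteins, 2 rose and 4 fell at the 4-cell stage and 3 fell at the 8-cell stage. ATF4, which drives amino acid carrier genes under stress, fell from 211 and 240 to 117 and 98.1 CPM (-1.07 ± 0.22, limma adjusted p = 0.0012), and the metallothionein MT2A from 40.5 and 15.3 to 3.62 and 5.88 CPM. Of 13 tested members of other transport families, 3 rose and 3 fell at the 4-cell stage and 1 fell at the 8-cell stage.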

How the data were processed

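The deposited table is named as raw counts but holds CPM, reads scaled to a library total of 1000000, made by the authors. Reads had been trimmed with Trim Galore 0.6.7, aligned with HISAT2 2.2.1 and counted with featureCounts 2.0.1, per the submitters' processing notes; genome build, annotation and strand setting are not given in the sources used here. In all libraries 100% of the deposited CPM values were whole multiples of 1 read (within 0.05 reads), so reads were recovered. Of 12 value columns, 4 matched no sample and were not used.

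Genes averaging at least 1 CPM (12129) were fitted with limma 3.58.1 in R 4.3.3 (log2 of CPM + 1, trend, all 8 libraries in 4 groups, Benjamini-Hochberg over all genes, threshold 0.05); the script was tested on simulated data. The test presumed CPM and was not changed. Fold changes are on that log2(CPM + 1) scale, which understates changes of low genes. Alternatives were pseudocounts of 0.5 and 5, no filter, TMM scaling, only the libraries compared, edgeR 4.0.16 and DESeq2 1.42.0 on recovered reads, a replicate block and each library left out.

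Members and lists were chosen with earlier results of these data known. The genes named were the 5 members with the smallest p per comparison and direction whose groups did not overlap, per substrate class the 3 with the highest mean level and the 2 with the smallest p for editing, and carriers known from embryos. Some genes that this rule names are not reported here. Other names were chosen after their values were seen. All 180 members matched RefSeq symbols or synonyms (ARS-UCD2.0, used for names and neighbours only), and spans of 38 overlap another protein-coding gene, whose reads may be shared. Of the named members these include SLC10A5, SLC16A3, SLC1A1, SLC30A9, SLC35A1, SLC35A4, SLC37A3, SLC39A10, SLC41A2, SLC44A3, SLC5A3, SLC7A6 and SLC7A6OS. Levels are not compared between genes, since CPM is not scaled by length.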

Additional observations from a re-analysis of the deposited data

Results flagged for a closer look

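The change with editing differed between the stages for 8 members by the limma test of the difference itself (8-cell change minus 4-cell change, log2 scale): SLC35B2 (2.77), SLC3A2 (1.58), SLC35B1 (1.23), SLC7A6OS (1.22), SLC7A11 (-2.98), SLC10A4 (-2.24), SLC12A2 (-1.99) and SLC35E3 (-1.34). None of the 8 calls held in every alternative.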

How the results depend on the processing

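Of the members called, 37 at the 4-cell stage and 5 at the 8-cell stage held in every alternative. For the stage comparisons and the difference 0 did, and no call reversed direction. The 37 include SLC16A3, SLC35D2, SLC43A1 and SLC45A2, which passed the 1 CPM filter only through the 4-cell control group, and the SLC5A3 row. Leaving out 1 library each gave 43 to 77 of 76 calls at the 4-cell stage (14 to 38 of the 38 higher), 8 to 23 of 19 at the 8-cell stage, 0 to 27 of 16 for stage in control, 0 to 10 of 7 for stage in edited and 0 to 16 of 8 for the difference. The runs that cut the members' calls most also cut those over all genes, in each comparison. A lone library left in a group is assumed to vary like the others. With no filter, which tests more genes, 0 members were called for stage in control (51 at an unadjusted p under 0.05), stage in edited (41) and the difference (38). With only the libraries compared the counts were 1 for stage in control and 13 for stage in edited; edgeR gave 1 (49 unadjusted) for stage in control and 0 for the difference; DESeq2 gave 20 for stage in edited and 13 for the difference. The causes were not tested. TMM scaling made 3 of 18 calls (16.7%) at the 8-cell stage higher, against 5.26%, and 2 of 6 (33.3%) for the difference, against 50%. With the replicate block the counts were 73, 19, 15, 6 and 6; same-numbered libraries deviated together with correlations of 0.11, -0.09, -0.30 and 0.02 in the 4 comparisons of groups, so the numbers were not taken as pairs. The crossed block for stage in control, added after seeing the data, gave 23.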
